A study of Mus musculus with 2 samples.

Results

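Dendritic cells are the antigen-presenting cells that carry antigen to lymph nodes and prime T cells, and 10 genes that mark their lineage, subsets and maturation were followed here in cultures of myeloid-derived suppressor cells (MDSCs). The genes were Flt3, Zbtb46, Batf3, Xcr1, Clec9a, Cd209a, Itgax, Ccr7, Fscn1 and Cd83. They were taken by symbol from a deposited table of 54751 gene rows, and all 10 were found. MDSCs are immature cells of the myeloid lineage that can restrain T cells. The cells were wild-type (WT) mouse bone marrow cultures kept in medium with heat-treated serum. The control group received vehicle, the other mrWNT2, a preparation of the secreted WNT ligand WNT2, on day 0 and day 3, and both were collected on day 6. Strain, age, number of animals and the cytokines used to grow the cells are not given in the sources used here. There was 1 library per group, and the totals were 13474453 counts (control) and 12621110 (mrWNT2). Differences therefore have no replicate check, no test was possible, and every interval compares these libraries, not the conditions, and covers counting error only.

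Classical dendritic cells arise from bone marrow progenitors that respond to FLT3 ligand, and the factor ZBTB46 marks their lineage. One branch, cDC1, depends on BATF3, carries XCR1 and CLEC9A and cross-presents antigen from dead cells. The other, cDC2, and the dendritic cells that monocytes form under inflammatory conditions share CD11c and, in part, CD209a. On maturation, dendritic cells display CD83, build fascin-bundled dendrites and gain CCR7, the receptor that guides them towards lymph nodes.

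Of the 10 genes, 4 lay under 1 CPM in both libraries, 5 reached at most 7.08 CPM and Itgax alone was above 10 CPM, and the counting intervals of 8 of the 9 ratios included 1. Flt3, Xcr1 and Cd209a had at most 3 counts in either library. Itgax, which encodes CD11c, supplied 64.7% of the 595 control counts and 59.1% of the 540 mrWNT2 counts of the 10 genes. Levels are given as CPM, counts per 1e6 of a library size adjusted by TMM, a scaling that allows for differences in composition. A gene was called measured at a mean of at least 1 CPM over both libraries, and 6 of the 10 were: Itgax, Ccr7, Cd83, Fscn1, Clec9a and Batf3. Only Batf3 passed 1.5-fold upwards in mrWNT2 (1 of 6) and none passed it downwards (0 of 6), against 7.62% upwards and 7.02% downwards among all 12856 genes measured. Likewise 1 of 6 had a counting interval above a ratio of 1 and 0 of 6 one below it, against 21% and 18.8% of all measured genes. Those shares include genes with far more counts, whose narrower intervals leave 1 outside more easily. Among genes with a mean from 1 to 2 CPM, a range chosen after the values were seen, 8.69% had an interval above 1. From 6 genes such a share cannot be told from the background. Batf3 was under 1 CPM in control and passed the minimum only through the mrWNT2 library. The median log2 ratio of the 6 genes was 0.03, and that of all measured genes 0.02.

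**Figure D1:**
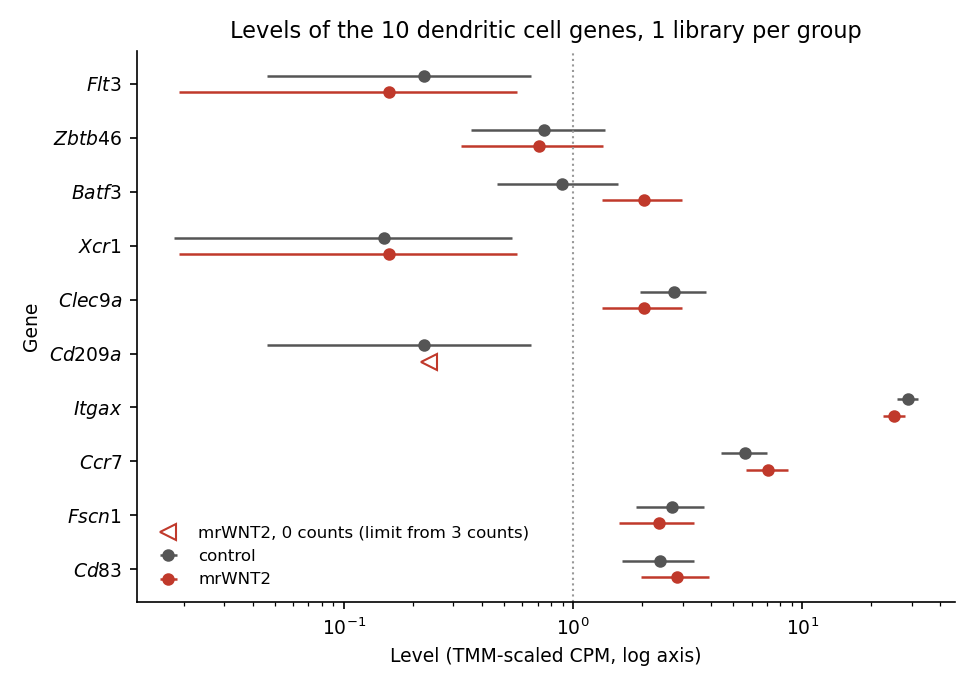
Level of each of the 10 genes (CPM, log axis) in the control library (grey) and the mrWNT2 library (red), with exact 95% Poisson intervals. The dotted line marks 1 CPM. The open triangle stands for the 0 counts of Cd209a in mrWNT2, drawn at the 0.236 CPM that 3 counts would give. Itgax is highest, near 25 to 29 CPM, and Flt3, Xcr1, Cd209a and Zbtb46 lie under 1 CPM in both libraries.

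Flt3 (ENSMUSG00000042817, chromosome 5, 147330741 to 147400489, GRCm38) encodes the receptor tyrosine kinase through which FLT3 ligand drives dendritic cell development. Reads were few, with 3 counts for control (0.224 CPM, exact 95% Poisson interval 0.0463 to 0.656) and 2 for mrWNT2 (0.157 CPM, 0.0190 to 0.568). The ratio was 1.43-fold lower and its exact 95% Clopper-Pearson interval, from the binomial split of the counts, ran from 0.163 to 17.1, so no direction was detectable at this depth. Zbtb46 (ENSMUSG00000027583, chromosome 2, 181387762 to 181459426) encodes a zinc finger factor that in the immune system marks classical dendritic cells and their committed precursors. Counts were 10 (control) and 9 (mrWNT2), or 0.748 and 0.708 CPM. Its ratio was 1.06-fold lower (0.386 to 2.94), and at its total of 19 counts only a ratio of 2.94-fold or more would have given an interval above 1.

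Batf3 (ENSMUSG00000026630, chromosome 1, 191097847 to 191108945) encodes a basic leucine zipper factor required for cDC1 development. Counts were 12 (control) and 26 (mrWNT2), or 0.897 CPM (0.464 to 1.57) and 2.04 CPM (1.34 to 3.0). The mrWNT2 library was the higher, although the intervals of these levels overlapped. The ratio was 2.28-fold (1.11 to 4.96), the smallest that leaves 1 outside the interval at a total of 38 counts. Ratios of this size were common at this level: among 1277 genes with a mean from 1 to 2 CPM, a range chosen after the values were seen, 9.16% passed 2-fold upwards and 9.24% downwards. In that range 8.69% of genes had an interval above 1.

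Both cDC1 surface markers were low. Clec9a (ENSMUSG00000046080, chromosome 6, 129408862 to 129424763), which encodes the receptor DNGR-1 that binds actin exposed by dead cells, was counted 37 times (control) and 26 times (mrWNT2). Its levels were 2.77 and 2.04 CPM, and it was 1.35-fold lower, with 1 inside the interval (0.798 to 2.33). Of the exonic bases of Clec9a, 5.59% also lie in exons of the neighbouring lectin gene Clec1b on the same strand, so some of its reads could belong to that gene. Xcr1 (ENSMUSG00000060509, chromosome 9, 123852315 to 123862029), which encodes the chemokine receptor that is the most selective surface marker of cDC1, had 2 counts in each library. These were 0.150 CPM in control and 0.157 CPM in mrWNT2, and the interval of the ratio ran from 0.0762 to 14.5.

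Cd209a (ENSMUSG00000031494, chromosome 8, 3743397 to 3748984) encodes a mouse homologue of DC-SIGN, a mannose-binding lectin of monocyte-derived dendritic cells and some cDC2. Counts were 3 (control) and 0 (mrWNT2). With 3 counts taken as the limit of a 0, the latter allows 0.236 CPM, no lower than the 0.224 CPM of control, and no ratio is given. Its family was also under the expression minimum. Cd209c went from 20 counts to 6 (3.17-fold lower, 1.23 to 9.65), and Cd209e from 20 to 4 (4.75-fold lower, 1.59 to 19.1). Cd209d had 3 and 4 counts, Cd209b had 1 and 0, and Cd209f and Cd209g had 0 in both libraries. These 6 relatives summed to 44 counts (control) and 14 (mrWNT2). None of the 50-base stretches of Cd209a transcripts occurred in transcripts of another gene in the reference annotation (0%).

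Itgax (ENSMUSG00000030789, chromosome 7, 128129547 to 128150657) encodes CD11c, the integrin alpha chain most used to identify mouse dendritic cells, which macrophages and activated monocytes and neutrophils can carry too. Counts were 385 (control) and 319 (mrWNT2), or 28.8 CPM (26.0 to 31.8) and 25.1 CPM (22.4 to 28.0). The mrWNT2 library was the lower, and the intervals overlapped. The ratio was 1.15-fold lower (0.987 to 1.34), and at 704 counts in total a ratio of 1.16-fold upwards would have given an interval above 1, so Itgax was the gene of the 10 with the finest resolution. Among the other beta-2 integrins, the shared beta chain gene Itgb2 was 1.10-fold lower (1.08 to 1.12; 1493 and 1360 CPM), Itgal (CD11a) 1.15-fold lower (1.09 to 1.21), and Itgam (CD11b), a defining marker of MDSCs, 1.04-fold lower (1.002 to 1.07). Scaled to total counts, the log2 ratio of Itgam was -0.03 instead of -0.05, a shift larger than the distance of its interval from 1. Itgad (CD11d), the nearest relative of Itgax, went from 12 counts to 1 (11.4-fold lower, 1.69 to 488), under the expression minimum. Of the 50-base stretches of Itgax transcripts, 8.02% also occur in Itgad transcripts, so a part of the reads of these genes could be placed with either.

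Sequence near the start of the genes is shown for Batf3, the gene past 1.5-fold, and for Itgax, the most abundant. Promoter windows (RefSeq, build GRCm38.p6, 250 bases before to 50 after the start) were found for 8 of the 10 genes. They were searched on both strands for GGG and TTCC with 3 bases between (NF-kB type), TGANTCA (AP-1 type), GAGGAA (PU.1 and ETS type), and GAAA repeated with 2 bases between (interferon response type). Matches were found in 3 windows: TGANTCA in those of Itgax and Zbtb46, and GAGGAA in that of Batf3. The other 5 held none of these letters. TGANTCA occurs in 7.81% and GAGGAA in 28.3% of the 32851 windows of the reference table, and a match is a description, not a binding site. The start used for Zbtb46 lies 35038 bases downstream of the start in the deposited table, and that for Batf3 567 bases downstream. The stretches outside annotated exons are given below on the plus strand, which is the strand of both genes, with the matches in capitals: chr1:191098238-191098324 for Batf3, between alternative first exons, and chr7:128129300-128129546 for Itgax, directly upstream of the gene.
Batf3: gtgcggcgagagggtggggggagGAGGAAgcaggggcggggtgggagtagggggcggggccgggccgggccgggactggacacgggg
Itgax: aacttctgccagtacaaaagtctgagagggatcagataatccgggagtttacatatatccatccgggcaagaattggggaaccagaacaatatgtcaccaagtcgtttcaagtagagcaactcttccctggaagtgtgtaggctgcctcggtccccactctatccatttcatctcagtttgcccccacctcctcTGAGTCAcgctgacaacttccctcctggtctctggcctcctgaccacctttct

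The 3 maturation genes were all measured, and none was as much as 1.5-fold apart. Ccr7 (ENSMUSG00000037944, chromosome 11, 99144196 to 99155077), the receptor for the lymph node chemokines CCL19 and CCL21, was counted 75 times (control) and 90 times (mrWNT2), or 5.61 CPM (4.41 to 7.03) and 7.08 CPM (5.69 to 8.70). The mrWNT2 library was the higher and the intervals overlapped, with a ratio of 1.26-fold (0.919 to 1.74). Cd83 (ENSMUSG00000015396, chromosome 13, 43784775 to 43803132), which encodes a surface protein that stabilises MHC class II and CD86 on mature cells, had 32 and 36 counts, 2.39 and 2.83 CPM. Its ratio was 1.18-fold higher (0.714 to 1.97). Fscn1 (ENSMUSG00000029581, chromosome 5, 142960343 to 142973185), which encodes the actin-bundling protein fascin that shapes dendrites, had 36 and 30 counts, 2.69 and 2.36 CPM, and was 1.14-fold lower (0.683 to 1.92). The intervals of all 3 ratios included 1. They ran from 1.92-fold lower to 1.46-fold higher for Fscn1 and from 1.40-fold lower to 1.97-fold higher for Cd83. For Ccr7 the limits were 1.09-fold lower and 1.74-fold higher. Differences of those sizes in either direction lie within counting error.

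**Figure D2:**
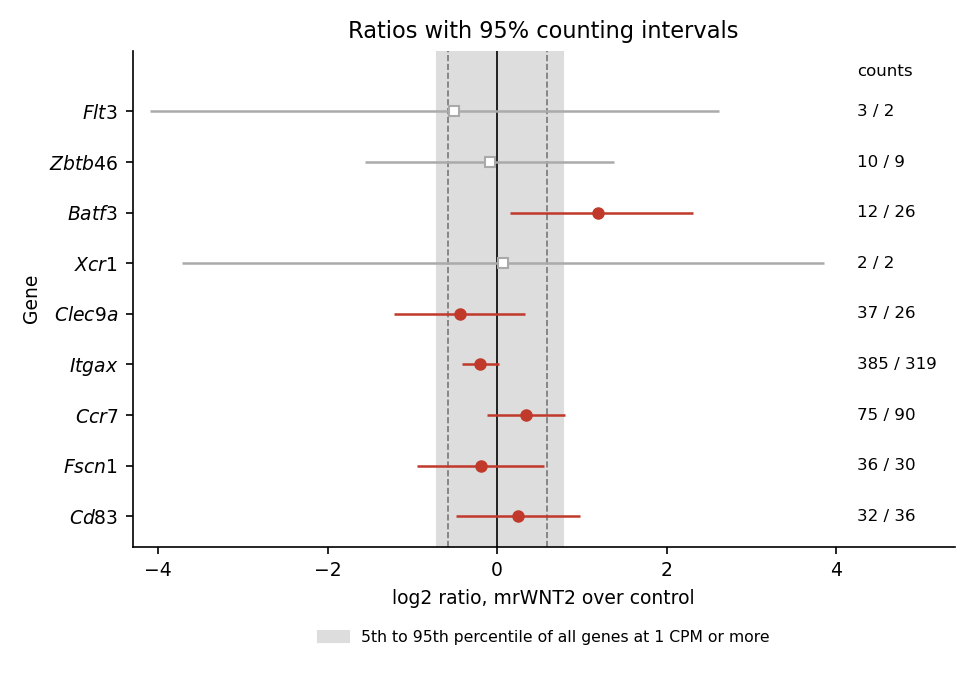
Log2 ratio of mrWNT2 over control for the 9 genes that have one, with exact 95% binomial intervals and the counts in control and mrWNT2 at the right. Filled points are genes measured at 1 CPM or more and open squares those below, dashed lines mark 1.5-fold either way, and the grey band is the 5th to 95th percentile of all measured genes (-0.71 to 0.78). Batf3 at 1.19 is the gene outside the band and the one whose interval leaves 0 outside. For all genes with a mean from 1 to 10 CPM, where Batf3 lies, the same percentiles are -1.09 and 1.17, so it stands at their edge.

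Levels of different genes were compared with the authors' deposited FPKM, which is scaled to gene length. In control, Itgax stood at 6.06 FPKM (counting interval 5.47 to 6.70) and Ccr7 at 2.87 (2.26 to 3.60), and these intervals overlapped neither each other nor that of the next gene. Cd83, Fscn1, Clec9a and Batf3 followed at 0.941, 0.904, 0.850 and 0.568 FPKM, each with an interval that overlapped that of its neighbour in the order. Cd209a, Zbtb46, Flt3 and Xcr1 were lowest, from 0.143 down to 0.0340 FPKM. In mrWNT2, Itgax (5.16 FPKM) and Ccr7 (3.54 FPKM) again led without overlap. Batf3 came next at 1.27 FPKM, ahead of Cd83 (1.09), Fscn1 (0.774) and Clec9a (0.614), with overlapping intervals between neighbours. Among protein-coding genes with FPKM above 0, Itgax ranked at percentile 59.5 in control and 55.2 in mrWNT2. Ccr7 ranked at 45.0 and 47.8, and Flt3 at 6.29 and 3.98.

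**Figure D3:**
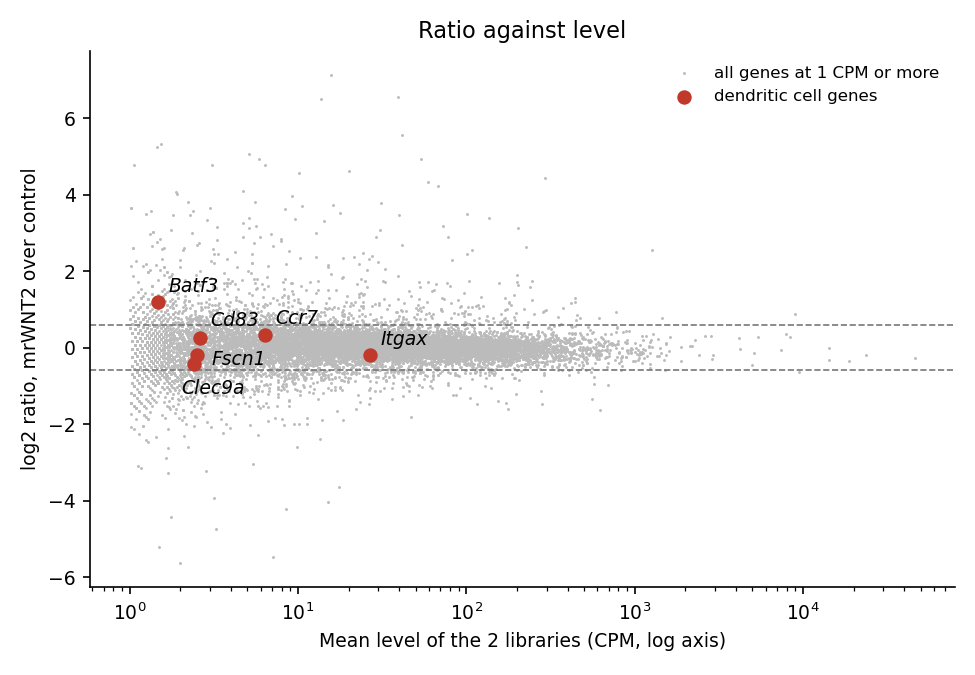
Log2 ratio of mrWNT2 over control against mean level (CPM, log axis) for all 12856 measured genes (grey) and the 6 measured dendritic cell genes (red), with dashed lines at 1.5-fold either way. The spread of ratios widens towards low levels, where 5 of the 6 genes lie, and Batf3 lies above the upper line among many genes of its level.

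Other genes of dendritic cell maturation, from a list that leaves out the 10, had more higher than lower members. The list was chosen with earlier results of these data known, so its counts are a description only. Of 28 listed, 21 were measured. In mrWNT2, 9 of them passed 1.5-fold upwards, 0 downwards and 12 neither (7.62% upwards and 7.02% downwards among all measured genes), with a median log2 ratio of 0.39 against 0.02 for all measured genes. The largest ratio was that of Tnfrsf9, which encodes the costimulatory receptor 4-1BB, with 35 and 191 counts (5.74-fold higher, 3.99 to 8.48). The chemokine gene Ccl22, a product of mature dendritic cells and activated macrophages that attracts CCR4-bearing T cells, had 117 and 558 counts (5.02-fold higher, 4.10 to 6.18), and Ccl17, which encodes another CCR4 ligand, 93 and 239 (2.70-fold higher, 2.12 to 3.47). The adhesion gene Icam1 was 2.55-fold higher (2.25 to 2.89), and Relb, a subunit of the alternative NF-kB pathway needed for dendritic cell maturation, 2.11-fold higher (1.74 to 2.57). The most abundant members, Tnfaip2 and Samsn1, were 1.10-fold and 1.11-fold higher. The genes of the CD28 ligands, named here after their values were seen, were within 1.5-fold: Cd80 had 712 counts in each library (1.05-fold higher, 0.947 to 1.17) and Cd86 119 and 90 (1.26-fold lower, 0.948 to 1.67). Cd40 had 3 and 7 counts and Il12b, which encodes a subunit of IL-12, 0 and 1. The median of the list corresponds to 1.31-fold, beside 1.26-fold for Ccr7, 1.18-fold for Cd83 and 1.14-fold lower for Fscn1, and a difference of these genes from the list was not tested. Activated macrophages and monocytes can express some of these genes too, and which cells gave the higher counts was not tested.

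The ligands for 2 of the receptors differed in detectability. Flt3l, which encodes FLT3 ligand, was counted 125 times (control) and 73 times (mrWNT2), at 9.35 and 5.74 CPM, and was 1.63-fold lower (1.21 to 2.20). Ccl19 and Ccl21a, which encode ligands of CCR7, were at 0 in each library, compatible with levels of up to 0.224 CPM (control) and 0.236 CPM (mrWNT2).

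Genes that govern dendritic cell development went both ways. All 19 of that list were measured, with 3 past 1.5-fold upwards, 3 downwards and 13 neither (all measured genes, 7.62% and 7.02%), and with a median log2 ratio of -0.07. Csf1r, the receptor of macrophage colony-stimulating factor, was 2.37-fold higher (2.25 to 2.50), and Irf4, a factor of cDC2 and of alternatively activated macrophages, 1.68-fold higher (1.40 to 2.01), beside Relb. The stem cell factor receptor gene Kit, of progenitors and mast cells, was 2.15-fold lower (1.82 to 2.54), beside Flt3l. The other lower gene, Irf8, named here after its values were seen, encodes a factor that works with BATF3 in cDC1. Counts were 173 (control) and 103 (mrWNT2), 12.9 and 8.10 CPM (1.6-fold lower, 1.24 to 2.06), the opposite direction to Batf3. The general myeloid factor gene Spi1 (PU.1) was 1.04-fold lower (0.998 to 1.08), and Csf2rb, the shared beta chain of the GM-CSF receptor, 1.29-fold higher.

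Of 14 further cDC1 genes, 8 were measured, with 2 past 1.5-fold upwards, 1 downwards and 5 neither (median log2 ratio 0.00), against 7.62% upwards and 7.02% downwards of all measured genes. Ly75, which encodes the endocytic receptor DEC-205, was 1.99-fold higher (1.81 to 2.20) from 628 and 1190 counts, and Tlr3, a sensor of double-stranded RNA, 2.05-fold higher (1.17 to 3.71) from 20 and 39. Itgae (CD103) had 19 and 9 counts, 2.01-fold lower, with 1 inside the interval (0.865 to 5.04), and passed the minimum only through the control library. The most abundant members, Wdfy4 and Naaa, were 1.07-fold lower and 1.08-fold higher. Of 12 further cDC2 and monocyte-derived dendritic cell genes, 9 were measured, with 1 past 1.5-fold upwards, 2 downwards and 6 neither (median -0.19), beside the same 7.62% and 7.02%. Clec10a, a galactose-binding lectin gene, was 2.34-fold lower (2.13 to 2.57) and the lipid-presenting molecule gene Cd1d1 1.83-fold lower (1.21 to 2.79). Clec4a4, which encodes the cDC2 lectin DCIR2, had 8 and 45 counts (5.92-fold higher, 2.76 to 14.5). It passed the minimum only through the mrWNT2 library and shares 15.7% of its 50-base stretches with its relative Clec4a2, so the split of some of its reads is uncertain. Sirpa, the most abundant of the list, was 1.08-fold higher.

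**Figure D4:**
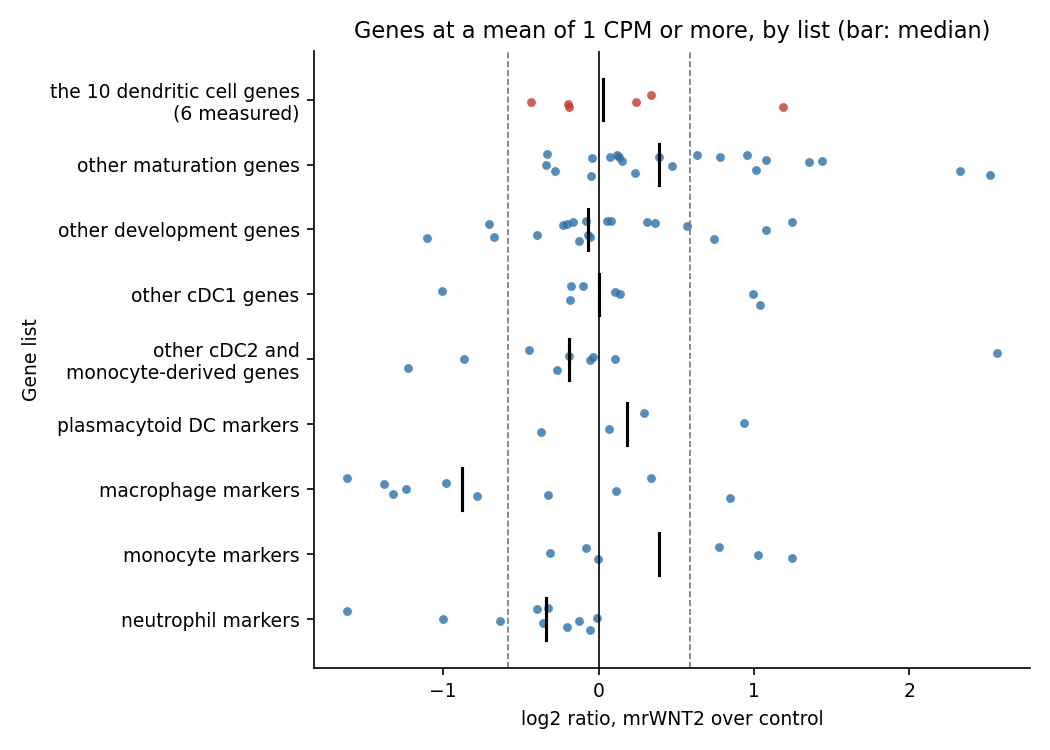
Log2 ratio of mrWNT2 over control for each measured gene, by list, with the 10 dendritic cell genes in red (6 measured), other lists in blue, black bars at the list medians and dashed lines at 1.5-fold either way; vertical jitter has no meaning. The 6 genes centre on 0.03, other maturation genes on 0.39 and macrophage markers on -0.88, and Relb and Csf1r each appear in 2 lists.

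Markers of other cells were counted in the same way, and for each count past 1.5-fold the share of all measured genes was 7.62% upwards and 7.02% downwards. Neutrophil markers, which include the granulocytic MDSC genes Ly6g and S100a9, summed to 83316 CPM (control) and 67337 CPM (mrWNT2). All 10 were measured, with 3 past 1.5-fold downwards (Ly6g at 2.0-fold, Retnlg and Ltf) and 0 upwards. Macrophages can carry CD11c too, and macrophage markers summed to 2283 and 1638 CPM. Of these 10 markers, 6 were past 1.5-fold downwards, among them Mrc1 (3.07-fold), and 1 upwards, Adgre1 (1.8-fold). Monocyte markers summed to 2851 and 3452 CPM, with 3 of 6 measured genes past 1.5-fold upwards (Csf1r, Cd14 and Fn1) and 0 downwards, and the monocyte marker Ly6c2 was 1.06-fold lower. The 10 dendritic cell genes summed to 44.5 and 42.5 CPM, mostly from Itgax. These sums run over different genes and lengths, so they do not give the relative amounts of the cell types. Progenitor markers, which matter because progenitors carry FLT3, summed to 131 and 107 CPM. Of 6 measured, 1 was past 1.5-fold downwards (Kit, 2.15-fold) and 0 upwards, and Cd34 was 1.08-fold lower (0.812 to 1.45). Lymphoid cells can express CCR7 and CD83, and most of their markers were sparse: Cd3e, a T cell receptor complex gene, had 1 and 0 counts, and the NK cell receptor gene Ncr1 0 in both. The B cell list summed to 4.86 and 4.40 CPM, mostly from Cd79a and Cd79b, and 5 of its 7 genes had at most 10 counts in each library. The T cell list summed to 24.1 and 31.0 CPM, mostly from Il7r, its 1 measured gene, which was 1.35-fold higher with an interval above 1. The NK cell list summed to 0.150 and 0.393 CPM, with 4 of its 6 genes at 0 in both libraries. The part of these cells in the values of the 10 genes was not tested. In RNA from a whole culture, fewer cells of a type and less RNA per cell cannot be told apart.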

How the data were processed

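RNA was measured in 2 libraries, 1 per group. TRIzol served for RNA isolation and the NEBNext Ultra kit for library preparation, per the labels' protocols. Tools listed in the submitters' processing notes are HISAT2 2.0.5 and featureCounts 1.5.0-p3, next to CASAVA 1.8, fastp and DESeq2 1.20.0, and the build is GRCm38 (mm10). The sources used here do not state the strand setting or the treatment of reads with several placements. The authors deposited raw counts per gene and FPKM. Over 10078 genes with more than 50 counts, count, length and FPKM implied 1 library size per column, so both tables hold the same libraries.

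From the counts, TMM factors (0.992 for control, 1.01 for mrWNT2) were computed with edgeR 4.0.16 in R 4.3.3. Ratios carry exact 95% binomial intervals from the 2 counts (scipy 1.17.1), without a pseudocount. A count of 0 was set to 3, with no ratio where 0 stood against 3 or fewer. Reads have no molecular identifiers, so the intervals may be too narrow. The interval method was tested on simulated data that held counting error only, so that test does not cover other sources of error. Alternatives were DESeq2 1.42.0 size factors, total counts, FPKM, other expression minimums and a 2-fold threshold.

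The 10 genes and all lists were chosen with earlier results of these data known. Named were the 10 genes, up to 5 measured members of each other list with the largest ratio of at least 1.5-fold, its 2 most abundant members, all Cd209 relatives and beta-2 integrins, and defining markers of other cell types. Others are said to be named after their values were seen. One listed marker is not reported here and was left out of its list.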

Additional observations from a re-analysis of the deposited data

How the results depend on the processing

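Scaling by DESeq2 size factors, by total counts or by the authors' FPKM shifted every log2 ratio by -0.03, 0.02 and -0.03, and left the count of the 10 genes at least 1.5-fold higher at 1 and lower at 0. DESeq2 size factors and FPKM gave the same ratios, so FPKM was not a separate check. Of 61 ratios of the 10 genes and other named genes, 6, 3 and 6 moved outside their counting intervals. Itgb2 and Csf2rb did so with DESeq2 size factors and FPKM, so the narrow intervals of abundant genes depend on the scaling. The median of the measured genes, 0.03, took values from -0.01 to 0.05 under these scalings and has no reliable sign. With a minimum of 10 CPM, Itgax alone was left, so that count was 0 and the median -0.20. Without a minimum the median was -0.08, and at a 2-fold threshold the counts were again 1 and 0. Among other maturation genes the number at least 1.5-fold higher was 9, and from 8 to 11 under other scalings and minimums, with 0 lower throughout. Among development genes 3 were higher, 4 when scaled to total counts, and 3 were lower, 2 at a minimum of 10 CPM. The 11 came without a minimum, which lets in genes with few counts. A 2-fold threshold was added for these lists after the data were seen. With it, 6 maturation genes were higher and 0 lower, and 2 development genes were higher and 1 lower, since a stricter threshold calls fewer genes. The shares of all genes past 2-fold or under other minimums were not counted, so the counts at these settings have no background beside them. No paired analysis was possible because each group had 1 library. No replicate could be left out. At their depth, the 5 measured genes under 10 CPM needed ratios from 1.39-fold (Ccr7) to 2.28-fold (Batf3) for an interval above 1.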

Other observations

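Plasmacytoid dendritic cells, the interferon-producing branch of the lineage, left little trace in either library. Their defining marker Siglech was at 0 in each, compatible with up to 0.224 CPM (control) and 0.236 CPM (mrWNT2), and 6 of the 10 listed genes had at most 10 counts in each library. The 4 measured genes are also expressed by other myeloid cells, and which cells gave their counts was not tested. Bst2, an interferon-inducible antiviral gene, had 131 and 238 counts (1.91-fold higher in mrWNT2, 1.54 to 2.38), and Runx2 453 and 334 (1.29-fold lower, 1.12 to 1.49). Tcf4, named here after its values were seen, had 183 and 182 counts (1.05-fold higher, 0.847 to 1.29). The list summed to 67.9 CPM (control) and 72.6 CPM (mrWNT2).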
